A study of Arabidopsis thaliana with 4 samples.

Results

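The genes described here are 6 Arabidopsis genes of embryo and seed biology, namely BBM, EEL, the oleosin gene AT3G01570, PAP85, FATB and FaTA. They were chosen by name, and each had 1 probe set that the platform annotation matched to it alone, so all 6 were measured, by 6 of the 22746 tested probe sets. None of the 6 passed the test for a difference between dexamethasone-treated and untreated plants, which 2.37% of all tested probe sets passed. The groups did not overlap for 1 of the 6, FATB, as for 47.2% of all tested probe sets. The values of 3 lay near those of bacterial control probe sets.

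RNA came from shoot apices of seedlings aged 8 days, of the Ws-0 background and carrying 35S:LEC1-GR, which were held in liquid medium for 1 h either with dexamethasone at 30 µM (2 arrays) or with none (2 arrays). The viral 35S promoter drives the fusion in most tissues, and the GR domain, from the glucocorticoid receptor, keeps it inactive until the steroid is added. All 4 arrays carry the fusion, so steroid and fusion effects cannot be told apart, and the sources used here do not give the number of independent lines. The labels call the replicates biological, and 2 arrays a group limit the precision.

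LEC1 is a seed-specific subunit of the NF-Y transcription factor that, with LEC2, FUS3 and ABI3, drives embryo identity and seed filling. BBM is an AP2-type factor whose overexpression makes embryos form on seedlings, and EEL is a bZIP factor of late embryogenesis that shares promoter sites with ABI5. Oleosins coat oil bodies, PAP85 is a vicilin-like storage protein, and FATB and FaTA are plastid thioesterases that release newly made fatty acids from acyl carrier protein. The comparison addresses whether transcripts of such genes differ within 1 h of LEC1-GR activation in a vegetative tissue.

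Values are log2 RMA expression values, 1 per probe set and array, and differences are dexamethasone-treated minus untreated. The Bacillus level is the highest of 27 probe sets for Bacillus transcripts in the same array. It was 4.74 and 4.79 in the treated arrays and 4.68 and 4.86 in the untreated arrays. The same probe set, for the 3′ part of a Phe transcript, gave it in all 4. The next highest Bacillus probe set stood at 4.13 and 4.29 in the treated arrays and at 4.103 and 4.26 in the untreated arrays, and the Bacillus medians lay between 3.50 and 3.56. Probes differ in affinity, so these controls are a rough guide to absence of signal. Of all tested probe sets, 24.4% lay at or below the Bacillus level in all 4 arrays.

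**Figure D1:**
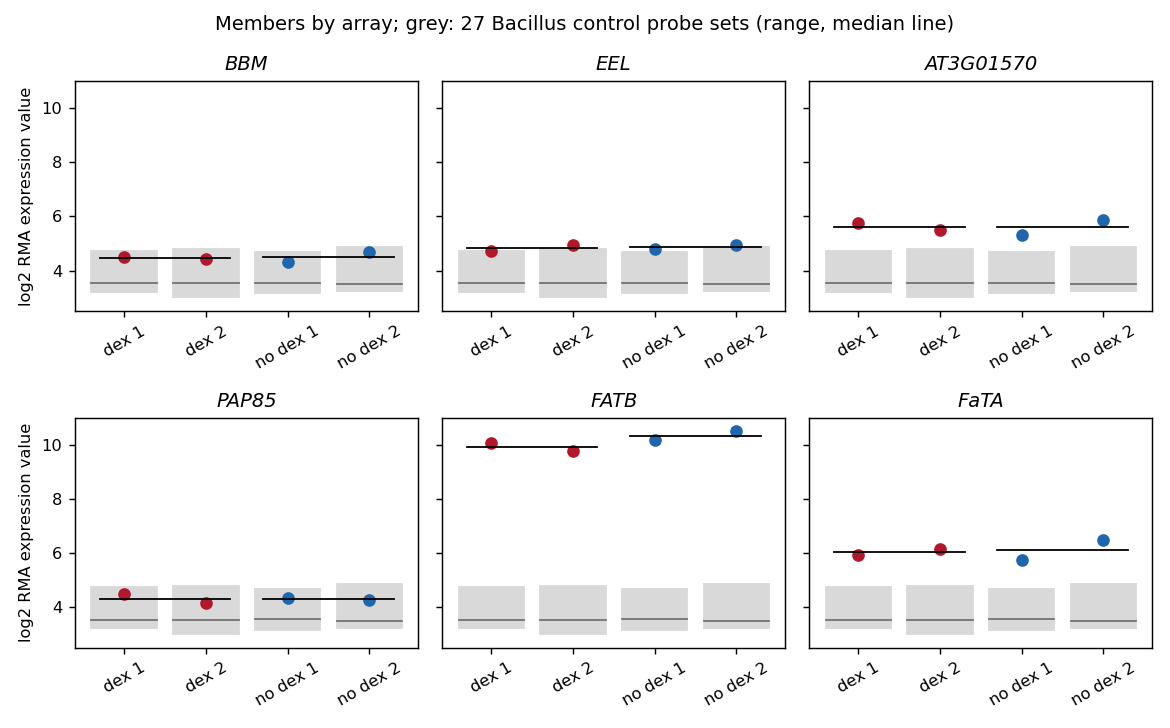
Log2 RMA expression value (y axis) of the 6 genes in each array (x axis, dexamethasone-treated in red, untreated in blue), with black lines at group means, grey boxes for the range of the 27 Bacillus control probe sets in that array and grey lines for their median. BBM and PAP85 lie inside the boxes, EEL lies at their upper edge, and AT3G01570, FaTA and FATB lie above them in every array.

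The embryo regulator BBM read 4.49 and 4.42 in the treated arrays, against 4.31 and 4.69 in the untreated arrays. Both treated values lay between the untreated ones. All 4 values were at or below the Bacillus level of their arrays but above 26 of the 27 Bacillus probe sets. The difference was -0.04 ± 0.17 (log2 difference ± SE, limma adjusted p = 0.951), with a 95% interval of -0.47 to 0.39, or 0.721-fold to 1.31-fold.

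EEL, the bZIP gene, read 4.73 and 4.94 in the treated arrays, against 4.81 and 4.94 in the untreated arrays. The groups overlapped, and the first treated array lay just under its Bacillus level of 4.74 while the other 3 lay just above theirs. The difference was -0.04 ± 0.14 (limma adjusted p = 0.938), with a 95% interval of -0.40 to 0.32.

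The oleosin gene AT3G01570 read 5.75 and 5.48 in the treated arrays, against 5.32 and 5.88 in the untreated arrays. Every value exceeded the Bacillus level of its array, by 1.02 and 0.70 in the treated arrays and by 0.63 and 1.02 in the untreated arrays. The treated values lay between the untreated ones, and the difference was 0.02 ± 0.23 (limma adjusted p = 0.984, 95% interval -0.57 to 0.61).

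PAP85 read 4.47 and 4.14 in the treated arrays, against 4.36 and 4.27 in the untreated arrays. The untreated values lay between the treated ones, and all 4 were below the Bacillus level. The second treated array exceeded 25 of the 27 Bacillus probe sets and the other 3 arrays exceeded 26. The difference was -0.006 ± 0.16 (limma adjusted p = 0.993, 95% interval -0.41 to 0.40).

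FATB, whose product favours saturated acyl chains such as palmitate, read 10.1 and 9.76 in the treated arrays, against 10.2 and 10.5 in the untreated arrays. The higher treated array and the lower untreated array were close to each other, but the groups did not overlap. Group means were 9.92 ± 0.23 in treated and 10.34 ± 0.25 in untreated plants (SD, n = 2 each). The 4 values lay 4.97 to 5.65 log2 units above the Bacillus level. The difference was -0.42 ± 0.19, a 0.749-fold ratio, and it did not pass (limma adjusted p = 0.368, 95% interval -0.91 to 0.07). Leaving out untreated replicate 2 gave -0.24, and leaving out dexamethasone replicate 2 gave -0.25. Groups that do not overlap were found in 47.2% of all tested probe sets, and in 52.9% of those above the Bacillus level in all arrays.

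FaTA, an oleoyl thioesterase gene, read 5.92 and 6.16 in the treated arrays, against 5.76 and 6.498 in the untreated arrays. The treated values lay between the untreated ones, and all were at least 1.08 above the Bacillus level. The difference was -0.09 ± 0.27 (limma adjusted p = 0.927, 95% interval -0.78 to 0.60), the widest interval of the 6.

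Limma with Benjamini-Hochberg adjustment called 0 of the 6 genes, against 2.37% of all 22746 probe sets (1.49% higher and 0.879% lower), and 0 of 6 had an unadjusted p below 0.05, against 17.2%. Without untreated replicate 1, FATB stood at -0.59 ± 0.20 with an unadjusted limma p of 0.032 (adjusted p = 0.196). In 5 of the 6 the difference was smaller than the larger of the 2 group SDs, FATB being the exception. Of the 5553 probe sets at or below the Bacillus level in all arrays, as BBM and PAP85 were, 0.036% were called. A probe set that changes across that level leaves this class, so the share is low in part by construction. Of the 565 with 1 array there, as EEL had, 2.65% were called, and of the 15696 above it in all arrays 3.2% were. Background signal shrinks differences between dim values, so the intervals of BBM, EEL and PAP85 bound the difference in signal and not in transcript. A call would have needed a difference of between 0.93 (EEL) and 1.76 (FaTA), and of 1.249 for FATB. These values take each gene's moderated SE and the largest unadjusted limma p among the calls, 0.00118.

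**Figure D2:**
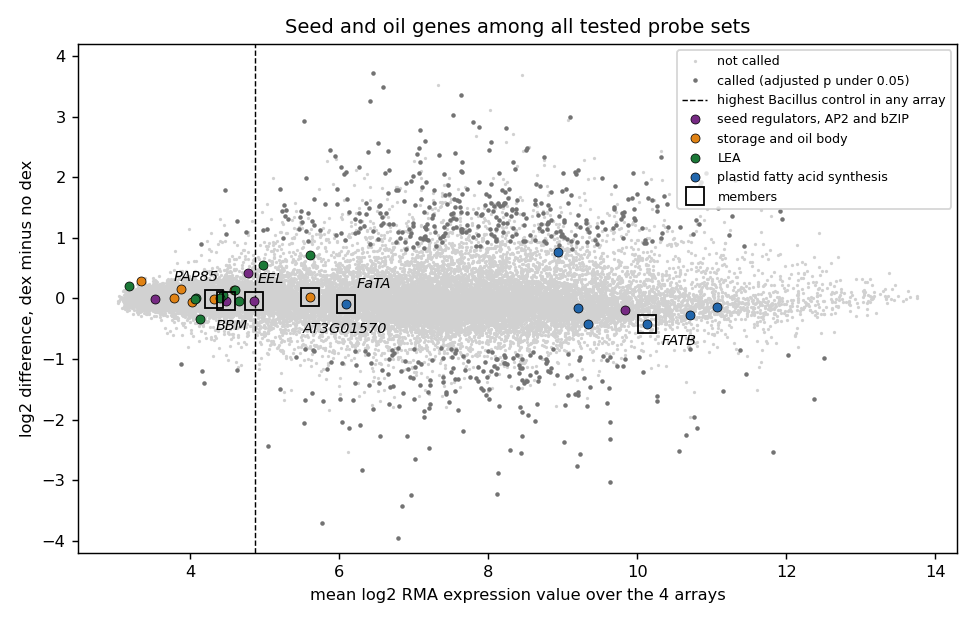
Log2 difference, dexamethasone-treated minus untreated (y axis), against mean log2 RMA expression value over the 4 arrays (x axis) for all 22746 tested probe sets, light grey where not called and dark grey where called. Coloured points are the measured seed and oil genes by group, black squares mark the 6 genes, and the dashed line is the highest Bacillus control value of any array, 4.86. BBM and PAP85 lie left of the line, EEL on it, and no coloured point is among the called ones.

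The 6 genes were set beside 131 genes of the same pathways, listed by locus code. Of these, 29 had a probe set matched to 1 gene, the 6 included. Limma called 0 of the 29 in either direction, against 2.37% of all probe sets. An unadjusted limma p below 0.05 was found for 3 of the 29 (M10, AT5G10160 and AT4G13050), against 17.2% of all probe sets. The groups did not overlap in 11 of the 29, which is 37.9%, against 47.2% of all probe sets. The median difference of the 29 was -0.002, against -0.017 over all probe sets, and 14 of the 29 lay at or below the Bacillus level in all arrays.

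Of the 21 seed regulators 3 were measured, BBM, EEL and BZIP53, a bZIP gene that activates seed maturation genes together with related bZIP factors. BZIP53 read 9.78 and 9.69 in the treated arrays, against 10.04 and 9.83 in the untreated arrays. Its groups did not overlap, and its difference of -0.20 ± 0.14 did not pass (limma adjusted p = 0.576). Leaving out untreated replicate 1 gave -0.093, and leaving out untreated replicate 2 gave -0.30. Of the 8 genes of the BBM family AT1G72570, which is AIL1, was the other measured one and lay at or below the Bacillus level in all arrays, with a difference of -0.002. Of the group A bZIP genes, EEL's family, FD, a partner of the flowering signal FT, was the other measured one. FD read 5.22 and 4.75 in the treated arrays, against 4.598 and 4.52 in the untreated arrays, a difference of 0.42 ± 0.19 that did not pass (limma adjusted p = 0.362), and only its first treated array exceeded the Bacillus level. The difference of FD was 0.19 without dexamethasone replicate 1, 0.66 without dexamethasone replicate 2 and 0.23 with the Bacillus level as a floor. None of the 20 listed NF-Y subunit genes and none of the 8 oil assembly genes had a probe set matched to it alone here.

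Of the 22 storage and oil body genes 7 were measured, and 5 of these lay at or below the Bacillus level in all 4 arrays. AT3G01570 was the only one above it in all 4. OLEO3, a second oleosin gene, read 3.83 and 3.73 in the treated arrays, against 3.75 and 3.80 in the untreated arrays. AT1G03890, of the cruciferin type, had a difference of 0.16 at values of 3.77 to 4.001. The cupin genes AT4G36700, AT2G28490 and AT2G18540 had differences of 0.13, -0.05 and 0.28. The list's differences had a median of 0.02. Limma called 0 of the 7, against 2.37% of all probe sets and 0.036% of those at or below the Bacillus level in all arrays. An unadjusted limma p below 0.05 was found for 0 of the 7, against 17.2% of all probe sets.

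Late embryogenesis abundant (LEA) genes encode hydrophilic proteins made as seeds dry, and 10 of 18 were measured. Of the 10, 7 lay at or below the Bacillus level in all arrays, and the differences ran from -0.34 to 0.71. Limma called 0 of the 10, against 2.37% of all probe sets and 0.036% of those at or below that level in all arrays. LEA4-5 read 5.52 and 6.41 in the treated arrays, against 5.27 and 5.23 in the untreated arrays. Its groups did not overlap, but the difference of 0.71 ± 0.30 (limma adjusted p = 0.329) was 0.27 without dexamethasone replicate 2 and 1.16 without dexamethasone replicate 1. M10 read 5.36 and 5.16 in the treated arrays, against 4.82 and 4.58 in the untreated arrays. Its second untreated array lay below the Bacillus level. The difference of 0.56 ± 0.15 did not pass (limma adjusted p = 0.155), and it was 0.42 with the Bacillus level as a floor. AT3G15670, the third brightest, lay at or below the Bacillus level in all 4 arrays with a difference of -0.05.

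The genes of plastid fatty acid synthesis, which make the acyl chains that FATB and FaTA release, were all above the Bacillus level in all arrays where measured, 7 of 28. Limma called 0 of the 7, against 3.2% of all probe sets above that level in all arrays. The difference was negative in 6, and among all probe sets above the Bacillus level in all arrays it was negative in 56.4%. The groups did not overlap in 5 of the 7, against 52.9% of those probe sets. The list's median difference was -0.17, against -0.017 over all probe sets. Unlike the list, the latter include the 24.4% at or below the Bacillus level in all arrays. AT1G24360, for ketoacyl carrier protein reductase, read 10.97 and 11.03 in the treated arrays, against 11.23 and 11.06 in the untreated arrays, a difference of -0.15 ± 0.13 (-0.059 without untreated replicate 1 and -0.23 without untreated replicate 2). AT2G34590, for a subunit of plastid pyruvate dehydrogenase, read 10.60 and 10.56 in the treated arrays, against 10.84 and 10.85 in the untreated arrays, a difference of -0.27 ± 0.12 (limma adjusted p = 0.358). The hydroxyacyl carrier protein dehydratase genes AT5G10160 and AT2G22230 had differences of -0.43 ± 0.14 and -0.17 ± 0.18 (limma adjusted p = 0.231 and 0.747). None of these 4 passed.

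The seventh gene of that list was AT4G13050, which is FATA2, the second oleoyl thioesterase gene beside FaTA. It was singled out after its values were seen. AT4G13050 read 9.31 and 9.31 in the treated arrays, against 8.55 and 8.55 in the untreated arrays. Replicates were within 0.01 of each other in both groups, and the difference of 0.76 ± 0.12 just missed the threshold of 0.05 (limma adjusted p = 0.0525, 95% interval 0.46 to 1.06). It was called without the dimmest 50% of probe sets (0.0401) and with the Bacillus level as a floor (0.0172), and its adjusted p over the other alternatives was 0.0502 to 0.29. Neither of the settings that called AT4G13050 changed its values, and its SE rose from 0.12 to 0.14 in each. Calls over all probe sets rose too, with the floor from 339 to 981 higher. Those calls therefore add no evidence on this gene. FaTA stood at -0.09 ± 0.27, and the difference between the responses of AT4G13050 and FaTA was not tested.

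**Figure D3:**
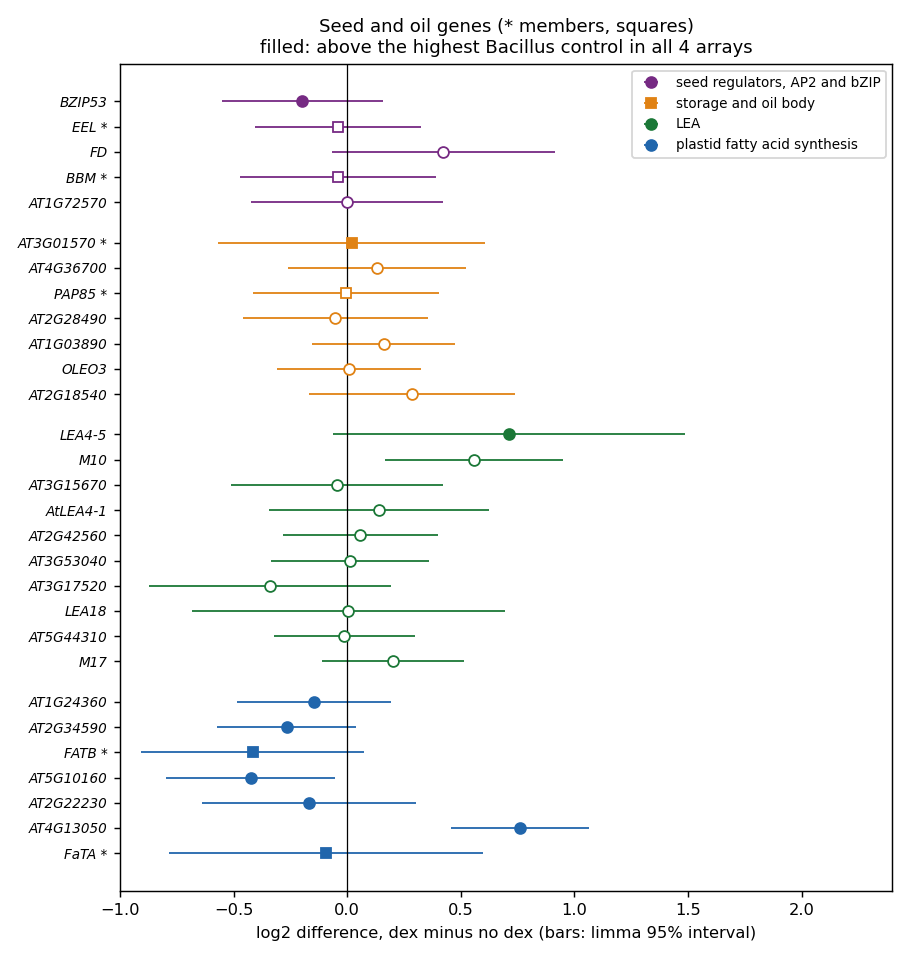
Log2 difference, dexamethasone-treated minus untreated (x axis), with limma's 95% interval, for the 29 measured seed and oil genes, grouped by list and ordered by mean value (squares and asterisks mark the 6 genes). Filled symbols lie above the highest Bacillus control in all 4 arrays. The intervals of all 6 genes include 0, and those of M10, AT5G10160 and AT4G13050 do not. The intervals are unadjusted, and 17.2% of all probe sets had an unadjusted limma p below 0.05.

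Leaving out 1 array turned the sign of 5 of the 6 genes. The difference ranged from -0.23 to 0.15 for BBM, from -0.15 to 0.06 for EEL, from -0.26 to 0.30 for AT3G01570, from -0.17 to 0.16 for PAP85 and from -0.46 to 0.28 for FaTA. FATB stayed negative, from -0.59 to -0.24, and AT4G13050 stayed between 0.757 and 0.762. With 2 arrays a group, groups that do not overlap, as for FATB and AT4G13050, cannot change sign in these fits. Where 1 group lies inside the other, as for BBM, AT3G01570, PAP85 and FaTA, a change of sign was fixed in advance. For these genes the signs restate the overlap of the groups and say nothing on stability. Each such fit leaves 1 array in a group and takes its spread from the other group, so calls in these fits are a weak guide.

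**Figure D4:**
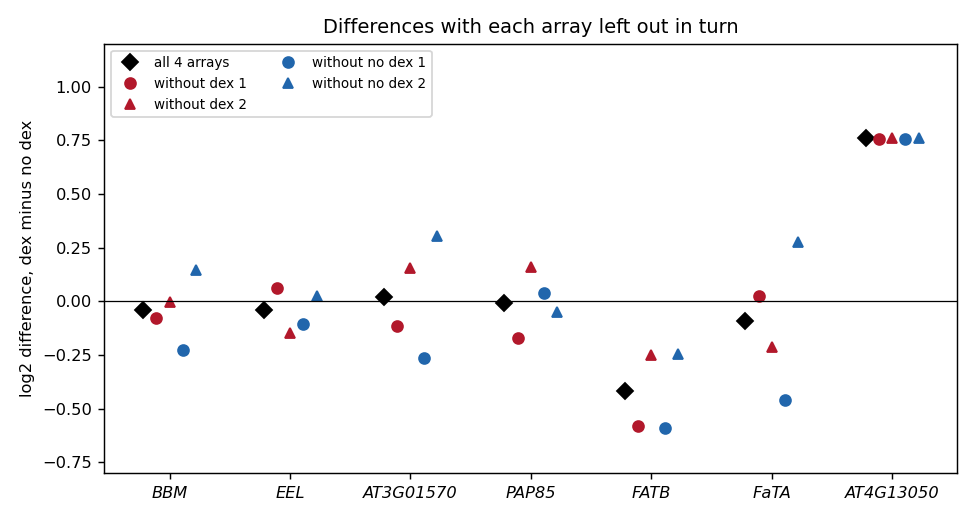
Log2 difference, dexamethasone-treated minus untreated (y axis), for the 6 genes and AT4G13050 (x axis) with all 4 arrays (black) and with each array left out in turn (red for a treated array, blue for an untreated one). Values for BBM, EEL, AT3G01570, PAP85 and FaTA fall on both sides of 0, those for FATB lie below it, and those for AT4G13050 coincide at 0.76.

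The highest of the 4 arrays was untreated replicate 2 in 5 of the 6 genes and dexamethasone replicate 1 in PAP85. For EEL the margin was narrow, 4.940 against 4.937 in dexamethasone replicate 2. Untreated replicate 2 was the highest array in 28.6% of all tested probe sets. Measured markers of root cells and of the shoot apex also summed highest in that array. The root list had 3 of 5 genes measured, PYK10, EXPA18 and EXPA7, whose log2 values summed to 21.4 and 22.2 in the treated arrays and to 21.5 and 24.98 in the untreated arrays. None of these was at the Bacillus level in all arrays, and PYK10 read 11.6 to 12.3. EXPA7 read 4.59 and 4.97 in the treated arrays, against 5.03 and 6.25 in the untreated arrays. Its first treated array lay below the Bacillus level. EXPA18 read 4.98 and 5.20 in the treated arrays, against 4.86 and 6.46 in the untreated arrays. The part of root tissue in the values of the 6 genes was not tested. Of the 11 shoot apex markers 3 were measured, whose log2 values summed to 17.5 and 17.1 in the treated arrays and to 17.2 and 18.0 in the untreated arrays. YAB3 and UFO lay above the Bacillus level in all arrays, and CLV3, the stem cell gene, lay at or below it in 3. The leaf gene LHCB4.1 read 13.28 to 13.41.

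For the 3 genes above the Bacillus level in all arrays, the nearest patterns were sought by Euclidean distance over the 4 array values, each probe set centred on its mean, among 8581 probe sets that match 1 gene and lie above the Bacillus level. FATB was nearest to AT5G57230 (distance 0.027), ATIM (0.057) and AT5G48800 (0.069), whose differences were -0.42, -0.41 and -0.36. FaTA was nearest to NANA (0.051), AT4G14780 (0.052) and AT2G45060 (0.054). AT3G01570 was nearest to AT4G20460 (0.048), AT4G18970 (0.049) and AT1G74490 (0.050). None of these 9 was called by limma, against 3.2% of all probe sets above the Bacillus level in all arrays. They were chosen for values that track genes not called, so this follows largely from the choice. Within a distance of 0.2 lay 86 of the 8581 probe sets for FATB, 83 for FaTA and 67 for AT3G01570.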

How the data were processed

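Per the submitters' processing notes the authors made the deposited log2 values, 1 per probe set and array, with RMA and the affy package. The sources used here give neither versions nor filters. RMA gives arrays a common distribution, so a shift shared by all transcripts is not visible. Without the 64 control probe sets, 22746 remained for testing. Of these, 13513 matched 1 gene, 503 several and 8730 none here. Gene identifiers were matched to the reference table for 13436. Groups came from the sample titles. They were compared two-sided by lmFit and eBayes of limma 3.58.1, run in R 4.3.3, with Benjamini-Hochberg adjustment over all probe sets, a threshold of 0.05 and no block. SEs and 95% intervals are moderated, with 3.09 prior degrees of freedom. The members and lists were chosen with earlier results of these data known. The rule for names took the 6 members, up to 6 called and the 3 brightest measured genes of each list, and the 3 nearest patterns of each member above the Bacillus level. All measured storage and fatty acid genes were named too, after their values were seen. In data simulated for this comparison, with 22746 probe sets of which 200 changed, the fit found 8.96% of 2-fold, 79.1% of 4-fold and 97% of 8-fold changes. The simulated spread came from limma's own fitted model, without shrinkage of dim values. The shares depend on the number changed, and 539 probe sets were called in the data, so they need not hold there. Alternatives were the replicate number as a block, filters on dim probe sets, further scalings, other moderation, floors and each array left out. Deviations of same-numbered arrays correlated at 0.227, with 2 pairs only, so numbers were not taken as pairs. No sequences or coordinates were used here.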

Additional observations from a re-analysis of the deposited data

How the results depend on the processing

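None of the 6 genes was called under any of the 14 alternatives that tested it. In 3 of these, given below, limma or the unmoderated test called no probe set at all, so they show nothing on stability. The counts over all probe sets, 339 higher and 200 lower, moved more. Limma called 559 higher with the replicate block, under which no call among the 6 genes changed. In this balanced layout the block cannot change a difference, only its SE. With the block the SE went from 0.19 to 0.20 for FATB and from 0.27 to 0.17 for FaTA. Limma called 981 and 646 with a floor at the highest Bacillus control and 110 and 76 with a floor at the Bacillus median. The unmoderated test called 0 and 0, with 2580 at an unadjusted p below 0.05. With 1 array left out the counts were 0 to 734 (higher) and 0 to 458 (lower). Limma called 0 without dexamethasone replicate 1 or without dexamethasone replicate 2, with 2672 and 2448 at an unadjusted p below 0.05. These fits take the spread of the lone array from the other group. The seed and oil genes called went to 1, AT4G13050, without the dimmest 50% of probe sets and with the floor at the highest Bacillus control. The dimmest 30% and 50% held 3 and 5 of the 6 genes, which those filters left untested. The floor at the highest Bacillus control replaced every value of BBM and PAP85. Both then had the difference of the floor itself, -0.011, so neither could be called there.

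A further quantile normalization gave -0.00025 for AT3G01570, -0.012 for OLEO3, -0.013 for LHCB4.1, 0.013 for PYK10 and -0.015 for AT1G74490. Centring on the median gave 0.0034 for AT1G72570. The floor at the highest Bacillus control gave -0.0072 for AT4G36700. It gave -0.011 for AT1G03890, OLEO3 and AT2G18540, which is the difference of the floor itself. With 1 array left out, FaTA ranged from -0.46 to 0.28, PAP85 from -0.17 to 0.16, AT3G01570 from -0.26 to 0.30, EEL from -0.15 to 0.064 and BBM from -0.23 to 0.15. It gave -0.18 to 0.18 for AT1G72570, -0.22 to 0.12 for AT3G15670, -0.032 to 0.095 for LHCB4.1, -0.36 to 0.35 for PYK10, -1.37 to 0.23 for EXPA18, -0.14 to 0.0035 for YAB3 and -0.42 to 0.18 for CLV3. It gave -0.016 to 0.28 for AT4G36700, -0.21 to 0.10 for AT2G28490, -0.044 to 0.058 for OLEO3 and -0.39 to 0.056 for AT2G22230. It gave -0.28 to 0.35 for AT4G20460, -0.23 to 0.33 for AT4G18970, -0.26 to 0.28 for AT1G74490, -0.46 to 0.31 for NANA, -0.44 to 0.24 for AT4G14780 and -0.44 to 0.23 for AT2G45060. Without untreated replicate 1 limma called EXPA18 and EXPA7. For these changes the cause was not tested.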

Other observations

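The Arabidopsis control probe set for 25S ribosomal RNA differed between arrays by more than any of the 6 genes, and was picked after its values were seen. It read 8.96 and 10.48 in dexamethasone replicates 1 and 2, against 8.22 and 10.96 in untreated replicates 1 and 2, so both arrays numbered 2 were high. Of the 6 genes, 5 read highest in untreated replicate 2, against 28.6% of all tested probe sets. In untreated replicate 1, where the 25S value was lowest, 3 of the 6 read lowest, against 24.1% of all. In dexamethasone replicate 2, 0 of the 6 read highest and 2 read lowest, against 24.3% and 24.98% of all. In dexamethasone replicate 1, 1 read highest and 1 read lowest, against 20.2% and 24.4% of all. The part of ribosomal RNA in the values of the 6 genes was not tested.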
